A study of Mus musculus with 24 samples.

Results

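The fatty acid desaturases Fads1, Fads2 and Fads3 and the elongases Elovl1, Elovl2, Elovl5 and Elovl7 were followed in mouse gastrocnemius, a calf muscle of mixed fibre type. A probe was taken as a member when its accession, or the gene name in the scanner files, belonged to one of these 7 genes, which gave 10 probes of the 41174 on the array and 7 of 21377 named genes. Of these, 6 probes of 4 genes (Fads1, Fads3, Elovl1 and Elovl5) were above background both in the muscle and in a common reference pool. The Fads2 probe passed in the muscle, at 2.98 times background, but not in the pool, at 1.99. None of the 6 probes that passed in both differed between the diets after adjustment over all probes. Among them Fads1 was the only member with an unadjusted p under 0.05, at a log2 ratio 0.22 higher in the cHF+F than in the cHF mice. Between mice of 1 diet Fads3 spanned as much as 2.88-fold on 1 probe and 2.13-fold on the other (both in cHF+F). Fads3 followed adipocyte markers, Elovl1 followed Schwann cell markers, and Elovl5 was highest in the mice of 1 array slide.

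All mice were male C57BL/6N, and they were 3 months old when an 8-week diet started. The control diet (cHF) was based on corn oil and held 35% lipids by weight, in the cHF+F diet a concentrate of n-3 LC-PUFA with 46% DHA and 14% EPA took the place of 15% of those lipids, and the cHF+ROSI diet was cHF with rosiglitazone, a thiazolidinedione that activates PPARγ, at 10 mg per kg diet. All 3 groups (8 mice each) were fasted for 10 hours and re-fed Chow during the following night, so that no animal was eating its experimental diet just before dissection. Each of the 24 arrays compared the RNA of 1 mouse (Cy5) with a common pool (Cy3), which also held RNA of mice on a higher dose of rosiglitazone that were not analysed here, and a log2 ratio of 0 means equality with that pool.

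LC-PUFA are made from the plant fatty acids of the diet by alternating desaturation and elongation in the endoplasmic reticulum. Fads2 inserts the first double bond and Fads1 a later one, and Elovl5 and Elovl2 lengthen the chain between and after these steps, on the way to arachidonic acid, EPA and DHA. Fads3 lies in the same gene cluster and has been shown to desaturate the sphingoid base of ceramides, while Elovl1 and Elovl7 mainly lengthen saturated and monounsaturated chains, those of Elovl1 for sphingolipids of membranes and myelin. The liver is the best known site of this pathway, where Fads1 and Fads2 are activated by SREBP-1c and PPARα and are repressed when the diet provides LC-PUFA.

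The promoters of the 3 members whose levels varied together between mice, or with markers of another cell type, are given here in RefSeq sequence (build GRCm38.p6), from 250 bases before to 50 bases after the start of transcription, with capitals on the motifs searched. These were CCAAT and GGGCGG (the GC box), the E-box CACGTG, the cyclic AMP response element TGACGTCA, the sterol regulatory element TCACNCCAC and AGGTCA repeated with 1 base between (the element of PPAR), each on both strands. The promoter of Fads3 lies at chr19:10041298-10041597 (plus strand), that of Elovl1 at chr4:118427843-118428142 (plus strand, the promoter listed first of 2) and that of Elovl5 at chr9:77917115-77917414 (plus strand).
Fads3: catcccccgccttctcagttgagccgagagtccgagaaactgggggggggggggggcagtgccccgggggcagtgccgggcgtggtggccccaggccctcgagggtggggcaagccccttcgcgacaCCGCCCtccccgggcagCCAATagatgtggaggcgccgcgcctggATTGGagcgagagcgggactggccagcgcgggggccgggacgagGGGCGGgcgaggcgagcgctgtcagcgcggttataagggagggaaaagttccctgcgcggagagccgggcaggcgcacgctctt
Elovl1: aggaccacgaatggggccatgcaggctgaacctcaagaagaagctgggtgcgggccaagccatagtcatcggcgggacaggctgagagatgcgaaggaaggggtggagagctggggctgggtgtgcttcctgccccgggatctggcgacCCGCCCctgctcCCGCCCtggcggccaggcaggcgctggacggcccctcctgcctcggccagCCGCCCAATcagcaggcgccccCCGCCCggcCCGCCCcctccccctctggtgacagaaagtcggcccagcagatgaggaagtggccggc
Elovl5: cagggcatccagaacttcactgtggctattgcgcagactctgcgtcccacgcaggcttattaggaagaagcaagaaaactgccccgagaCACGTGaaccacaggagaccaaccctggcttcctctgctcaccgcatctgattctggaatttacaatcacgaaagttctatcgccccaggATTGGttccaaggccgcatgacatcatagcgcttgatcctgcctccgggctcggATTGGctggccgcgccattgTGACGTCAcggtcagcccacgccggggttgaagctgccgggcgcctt

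The Fads3 promoter held 2 CCAAT and 2 GC boxes. The Elovl1 promoter held 1 CCAAT box and 5 GC boxes, one of which overlapped the CCAAT box, and the Elovl5 promoter held 2 CCAAT boxes, 1 E-box and 1 cyclic AMP response element. Of 32851 mouse promoters of the same length, 37.4% held CCAAT, 35.7% GGGCGG, 7.15% CACGTG and 1.79% TGACGTCA. The sterol regulatory element (1.24% of promoters) and the PPAR element (0.0396%) were in none of the 8 member promoters listed, which covered Fads2, Fads3, Elovl1, Elovl2, Elovl5 and Elovl7. These are matches of letters and not binding sites.

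The members were first ordered by whether the muscle and the pool both gave a usable signal. A probe counted as above background when its mean ratio of spot signal to local background was at least 2 in both channels. The Elovl1 probe had a ratio of 22.4 in Cy5 and 9.26 in Cy3, the Elovl5 probe A_51_P505493 of 15.1 and 6.34, and the Fads3 probe A_51_P464029 of 11.3 and 5.59. These 3 probes were well above background by the scanner software in Cy5 on 24, 24 and 23 arrays. The Fads1 probe, with ratios of 4.96 and 2.6, was also well above background in Cy5 on all 24 arrays. Its Cy5 ratio was 22.8 on cHF+ROSI replicate 4, but only 2.05, 1.94 and 1.99 on cHF replicates 1, 2 and 3. In Cy3 these cHF arrays had ratios of 2.04, 1.79 and 1.63.

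Of the probes that failed, the Fads2 probe came nearest, with ratios of 2.98 in Cy5 and 1.99 in Cy3, while the lowest Cy3 ratio among the kept member probes was 2.39, of the Fads3 probe A_52_P451796. The array of cHF+ROSI replicate 4 raised both means of Fads2, with ratios of 14.5 and 4.37 against at most 3.33 and 2.46 on the others. The software placed Fads2 well above background in Cy5 on all 24 arrays and in Cy3 on 20 arrays. The Elovl2 probe had ratios of 1.55 and 1.43 and was well above background in Cy5 on 1, 2 and 3 of the 8 arrays of cHF, cHF+F and cHF+ROSI. Elovl7 was dim on both probes, with A_51_P189594 well above background on no array and A_52_P354682 on 1, 3 and 6 arrays of those groups. Elovl2 and Elovl7 were therefore not compared between the diets in the main fit. Ratios to background are not levels, and they do not rank the genes against each other.

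**Figure D1:**
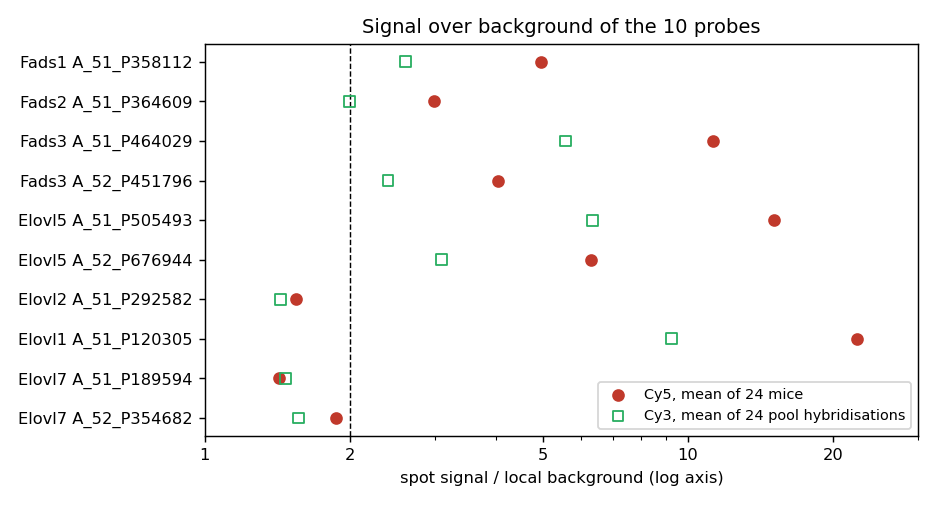
Mean spot signal over local background (log axis) of the 10 probes in Cy5 (filled circles, mean of 24 mice) and Cy3 (open squares, the pool on the same 24 arrays), with the minimum of 2 as a dashed line. The 6 probes of Fads1, Fads3, Elovl5 and Elovl1 lie right of the line in both channels, Fads2 falls just short in Cy3, and Elovl2 and Elovl7 lie left of it.

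In the coordinates of the scanner files (build mm8), the probes of the desaturases lie close together on chromosome 19. Those of Fads3 are at chr19:10125196-10125255 (A_51_P464029) and chr19:10126584-10126643 (A_52_P451796), that of Fads2 spans 431 bases at chr19:10131305-10131735 on the other strand, and that of Fads1 is at chr19:10263085-10263144. The Elovl1 probe is at chr4:117930352-117930411, the Elovl5 probes are at chr9:77770082-77770141 (A_51_P505493) and chr9:77769477-77769536 (A_52_P676944), and the probes of Elovl2 and Elovl7 are on chromosome 13. Exons and UTRs were not assigned, since the annotation used here was of another build.

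Array quality bears on all of the following values. On the array of cHF+ROSI replicate 4, 91.1% of spots were well above background in Cy5, against 30.4% to 61.3% on the others. All 10 of the muscle fibre markers examined (such as Acta1, Ckm and Myh4) were above background. Each slide held 1 array of every group and a group always had the same place on the slide, so diet and place cannot be told apart. In whole muscle, fewer cells of a type and less RNA per cell cannot be told apart either.

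Fads1, the desaturase of a late step towards arachidonic acid and EPA, gave the largest difference in means among the members relative to its error. In the cHF mice its log2 ratio was lowest at -0.34, had a median of -0.11 and was highest at 0.12. In the cHF+F mice these values were -0.16, 0.14 and 0.34, and in the cHF+ROSI mice -0.17, -0.0025 and 0.20. The cHF+F values lay mostly above those of cHF, 7 of 8 being above the cHF mean, but all 3 groups overlapped. The cHF replicates 1, 2 and 3, whose Fads1 signals were near 2 times background, were at -0.34, -0.20 and 0.083.

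The mean of Fads1 was -0.11 ± 0.15 (SD, n = 8) in cHF and 0.11 ± 0.15 (SD, n = 8) in cHF+F. The difference was 0.22 (SE 0.073, 95% confidence interval 0.067 to 0.37), or 1.16-fold, with an unadjusted p of 0.00619 and an adjusted p of 0.479 in limma. On the same slide, the cHF+F mouse was higher on 6 of 8 slides, with differences from -0.24 to 0.69 and a median of 0.27, and with slide as a block the unadjusted p was 0.0126 and the adjusted p 0.252. The widest gap was that of slide 1, which held the lowest cHF mouse and the highest cHF+F mouse. Without the 3 arrays of slide 1 the difference was 0.15, with an unadjusted p of 0.0451 and an adjusted p of 0.588.

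The difference in Fads1 depended on the reading of the arrays. With the Cy5 signal alone, without the pool as a reference, it was 0.098 (unadjusted p = 0.623 in limma), and in the normalized table of the authors it was 0.13 (unadjusted p = 0.182). Between cHF+ROSI and cHF it was 0.12 (SE 0.073, unadjusted p = 0.106), and 0.098 without cHF+ROSI replicate 4. Between cHF+F and cHF+ROSI it was 0.095 (SE 0.073, unadjusted p = 0.204).

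For Fads2, the enzyme of the entry step, values are given without a test because the pool was too dim. Its log2 ratio ran from -0.18 to 0.031 with a median of -0.079 in cHF, from -0.16 to 0.062 with a median of -0.040 in cHF+F, and from -0.20 to 0.12 with a median of -0.037 in cHF+ROSI. The 3 groups lay over each other.

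Fads3, the ceramide desaturase, had the widest spread of the members. On A_51_P464029 its log2 ratio was lowest at -0.62, had a median of -0.27 and was highest at 0.58 in cHF. The values were -1.04, -0.38 and 0.48 in cHF+F, and -0.51, -0.19 and 0.68 in cHF+ROSI. Each diet held mice from far below to well above the pool, and the groups overlapped almost fully.

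The other Fads3 probe, A_52_P451796, ran from -0.30 to 0.60 in cHF, from -0.43 to 0.66 in cHF+F and from -0.31 to 0.42 in cHF+ROSI, with medians of -0.12, -0.12 and -0.14. The 2 probes correlated at 0.840 over the 24 arrays. The lowest mouse on A_51_P464029 (cHF+F replicate 2, at -1.04) was at -0.11 on A_52_P451796, where its Cy5 signal was 1.72 times background. On A_51_P464029 the difference of cHF+F from cHF was -0.14 (SE 0.19, 95% confidence interval -0.54 to 0.25, unadjusted p = 0.463 in limma), which the Cy5 signal alone turned to 0.057. With each array centred on its median in place of loess, the median difference of all probes in this comparison was itself 0.114, and Fads3 at 0.038 stayed below it by 0.076 (-0.076 relative to the median). The difference of cHF+ROSI from cHF was 0.076 (SE 0.19, unadjusted p = 0.696), which was -0.048 without slide 1, and that of cHF+F from cHF+ROSI was -0.22 (95% confidence interval -0.62 to 0.18, unadjusted p = 0.264). On A_52_P451796 the 3 differences lay between -0.032 and -0.0090.

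Elovl5, the elongase of the early steps, was measured on 2 probes that correlated at 0.884. On A_51_P505493 its log2 ratio was lowest at -0.036, had a median of 0.053 and was highest at 0.51 in cHF. The values were -0.15, -0.050 and 0.50 in cHF+F, and -0.21, 0.037 and 0.83 in cHF+ROSI. The highest mouse of each diet was the one with replicate number 1, and the other mice overlapped.

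On A_52_P676944 the lowest, median and highest values of Elovl5 were -0.15, 0.051 and 0.53 in cHF, -0.19, -0.036 and 0.32 in cHF+F, and -0.14, 0.036 and 0.83 in cHF+ROSI. Replicate 1 was again the highest of each group. The cHF+F mean was below the cHF mean by 0.094 on A_51_P505493 (SE 0.12, unadjusted p = 0.439 in limma) and by 0.078 on A_52_P676944 (SE 0.11, unadjusted p = 0.486). With median centring the differences were 0.038 and 0.024, or -0.077 and -0.091 relative to the median of all probes under that scaling. Within slides the cHF+F mouse was the lower on 8 of 8 slides by the first probe, with differences from -0.27 to -0.0042, and on 6 of 8 by the other. The share of all probes with such counts was not computed, so the counts do not set Elovl5 apart.

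With slide as a block the unadjusted p of this Elovl5 difference was 0.174 and 0.237 on those probes, and the adjusted p was 0.589 and 0.651. The difference of cHF+ROSI from cHF was 0.020 (SE 0.12) and 0.039 (SE 0.11). The difference of cHF+F from cHF+ROSI was -0.11 (95% confidence interval -0.36 to 0.13) and -0.12 (-0.34 to 0.11). With slide as a block the unadjusted p of the last was 0.102 and 0.0816, and the adjusted p was 0.604 and 0.570.

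Elovl1, the elongase of sphingolipid chains, differed little between the diets. Its log2 ratio was lowest at -0.19, had a median of -0.034 and was highest at 0.29 in cHF. The values were -0.25, -0.056 and 0.16 in cHF+F, and -0.19, -0.052 and 0.26 in cHF+ROSI. All 3 groups overlapped over most of their range.

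The Elovl1 difference of cHF+F from cHF was -0.075 (SE 0.077, 95% confidence interval -0.23 to 0.083, unadjusted p = 0.337 in limma), and with median centring it was 0.017, or -0.098 relative to the median of all probes. That of cHF+ROSI from cHF was -0.0049 (95% confidence interval -0.16 to 0.15, unadjusted p = 0.949), and that of cHF+F from cHF+ROSI was -0.070 (unadjusted p = 0.369), or 0.055 with median centring (-0.047 relative to the median of all probes). These intervals leave room for changes of either sign.

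For the probes that failed the filter only ranges are given. Elovl2, the elongase of the last steps towards DHA, ran from -0.16 to 0.29 over all mice. Elovl7 ran from -0.34 to 0.22 on A_51_P189594 and from -0.32 to 0.60 on A_52_P354682, and its 2 probes correlated at only 0.185. Because of these dim signals no difference was tested in the main fit.

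**Figure D2:**
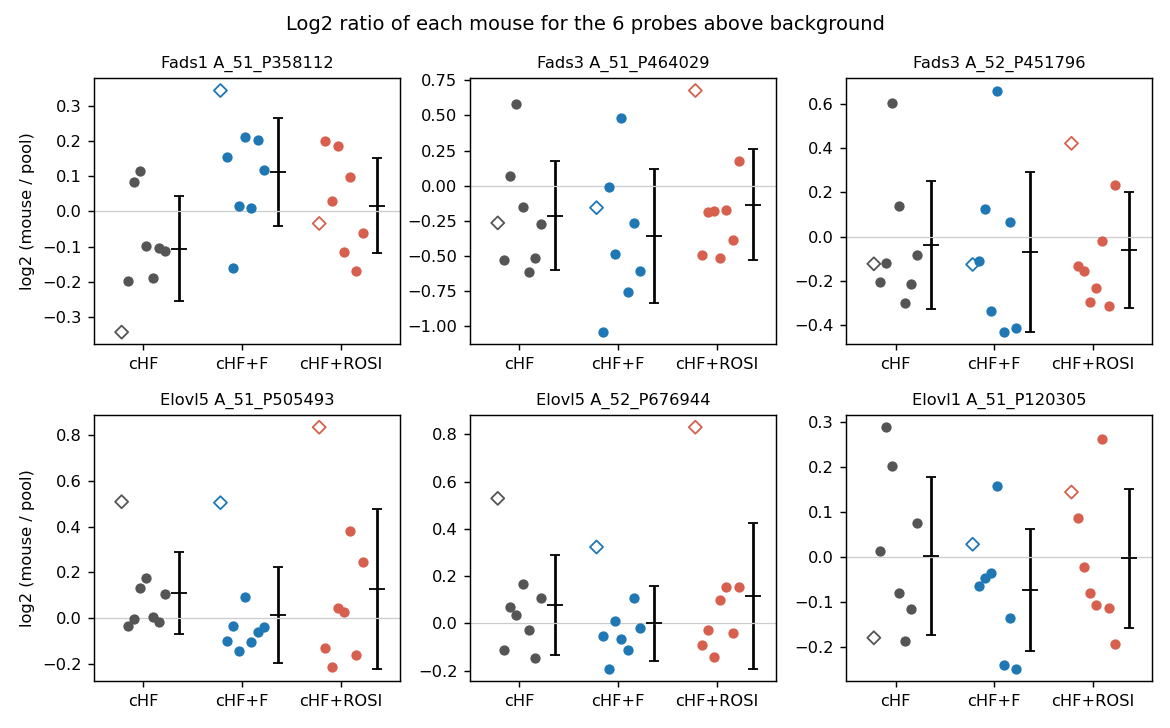
Log2 ratio of mouse over pool (vertical axis) for each of the 8 mice of cHF, cHF+F and cHF+ROSI on the 6 probes above background, with mean ± SD beside the points and the arrays of slide 1 as open diamonds. Fads1 is shifted upwards in cHF+F with overlap, Fads3 is widely spread in every group, and the slide 1 arrays are the highest for both Elovl5 probes.

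Of the 6 kept probes, 0 had an adjusted p under 0.05 in any of the 3 comparisons by limma, and neither had any of the 15958 probes tested (0% called; smallest adjusted p 0.0688 for cHF+F against cHF, 0.545 for cHF+ROSI against cHF and 0.219 for cHF+F against cHF+ROSI). With slide as a block, 8 probes passed in cHF+F against cHF (smallest adjusted p 0.00575 in limma) and 0 in the others, and no member was among them. At an unadjusted p under 0.05, cHF+F against cHF had 1 of 6 member probes, beside 6.84% of all probes (1092). The other 2 comparisons had 0 of 6, beside 4.96% (792 probes, cHF+ROSI against cHF) and 4.68% (747 probes, cHF+F against cHF+ROSI). A count of 1 among 6 probes is too small to set against that share. The median difference of the members was -0.076, 0.030 and -0.093 in that order, against 0.0024, -0.012 and 0.014 over all probes. In the Cy3 channel alone, which held the same pool everywhere, 0 of 6 member probes had an unadjusted p under 0.05, beside 0.495%, 1.87% and 0.113% of all probes in the same order, so that this count does not set the members apart.

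**Figure D3:**
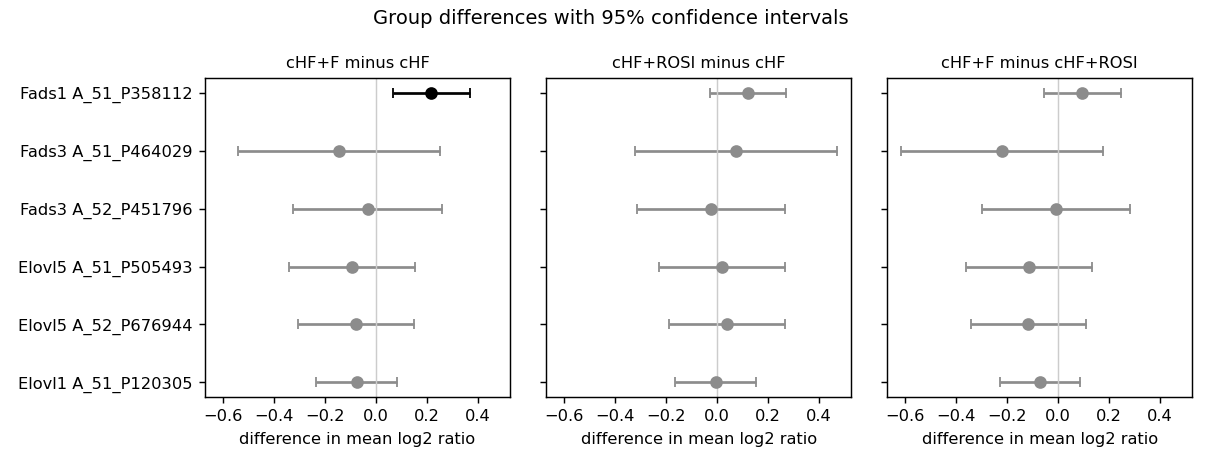
Difference between group means in log2 ratio (horizontal axis) with its 95% confidence interval for the 6 probes above background, in the 3 comparisons of the diets (n = 8 per group). The one interval drawn in black, Fads1 in cHF+F minus cHF (0.067 to 0.37), lies above 0 before adjustment for multiple tests, and all others cross 0.

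The spread between mice of 1 diet differed from member to member. The SD of the log2 ratio within groups was 0.423 and 0.307 on the Fads3 probes, which exceeded that of 98.0% and 94.9% of all kept probes, whose median was 0.15. It was 0.257 and 0.234 for Elovl5, at the 91.4 and 88.7 percentile. Elovl1 (0.156) and Fads1 (0.147) were near the median. Without the 3 arrays of slide 1 the SD of Elovl5 was 0.143 and 0.110, beside a median of 0.134 over all kept probes, and that of Fads3 was 0.405 and 0.307 (98.2 and 96.4 percentile). Fads3 was thus the most variable member with or without that slide, and the wide spread of Elovl5 rested on it.

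Gastrocnemius as dissected can hold fat and nerve, so marker lists of such cells were set beside the members. All 9 adipocyte markers (Adipoq, Plin1, Cidec, Cfd, Retn, Lep, Fabp4, Cidea and Slc7a10) were above background. Their mean log2 ratio ran from -0.83 to 0.61 in cHF, from -1.16 to 0.88 in cHF+F and from -0.91 to 0.34 in cHF+ROSI, with means of -0.30, -0.35 and -0.36, so that it varied widely within each diet. The Schwann cell markers scored were Mbp, Pmp22, Prx and Mag, all 4 above background. Their mean ran from -0.84 to 0.85 in cHF, from -0.39 to 0.32 in cHF+F and from -0.36 to 0.79 in cHF+ROSI. Hepatocyte markers (6 of 10 above background) had means of -1.08, -0.66 and -0.26 in that order, and ran from -2.46 to 1.38 in cHF+ROSI. Male germ cell markers (3 of 6) had means of -0.67, -0.59 and 0.013, and reached 2.49 in cHF+ROSI. The source of these transcripts in muscle samples was not tested.

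Fads3 (A_51_P464029) followed the adipocyte markers across the 24 mice, with a Pearson r of 0.860 and a Spearman rho of 0.864. The permutation p of each was 1e-05, the smallest that 100000 resamples can give, and 0.00032 after adjustment over the 32 relations of 4 members with 8 marker lists, which were computed after the data had been seen. The r was 0.849, 0.913 and 0.890 within cHF, cHF+F and cHF+ROSI, 0.836 without the 2 mice farthest from the median of Fads3, 0.878 with slide means removed and 0.404 with the Cy5 signal alone. The other Fads3 probe gave 0.877. The mice high in adipocyte markers were thus those high in Fads3 in every diet, and the part of these cells in the Fads3 signal was not tested.

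Elovl1 followed the Schwann cell markers, with an r of 0.808 (permutation p = 2e-05, adjusted p = 0.00032) and a rho of 0.710 (permutation p = 0.00016, adjusted p = 0.00256). The r was 0.860, 0.692 and 0.954 within cHF, cHF+F and cHF+ROSI, 0.764 without the 2 mice farthest from the median of Elovl1, 0.836 with slide means removed and 0.514 with the Cy5 signal alone. Weaker relations by Pearson's r were those of Fads3 with the Schwann cell markers (r = 0.580, rho = 0.498, permutation p = 0.00308 and 0.0129, adjusted p = 0.0329 and 0.0934; r = 0.330 without the 2 farthest mice) and of Elovl1 with the adipocyte markers (r = 0.564, rho = 0.497, permutation p = 0.0044 and 0.0146, adjusted p = 0.0352 and 0.0934; r = 0.566 without the 2 farthest). The part of nerve in the Elovl1 signal was not tested. No other relation with a marker list had an adjusted p under 0.05 for r or rho. The nearest was Fads1 with the Schwann cell markers (r = 0.489, rho = 0.503, permutation p = 0.0146 and 0.0135, adjusted p = 0.0934 for both). Its r was 0.934, 0.317 and 0.408 within cHF, cHF+F and cHF+ROSI. With slide means removed, the relation of Elovl5 with the adipocyte markers had an r of 0.669 (permutation p = 0.00303, adjusted p = 0.0242) against 0.327 without that step. That of Fads3 with the Schwann cell markers was then 0.753 (adjusted p = 0.0242). The relation of Elovl1 with the adipocyte markers no longer passed (r = 0.593, permutation p = 0.0123, adjusted p = 0.0787).

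**Figure D4:**
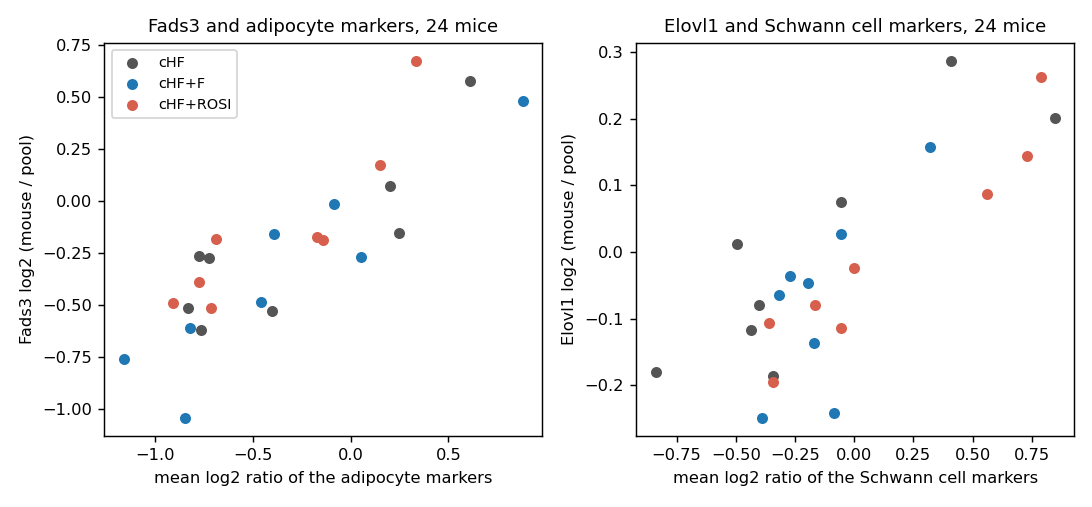
Log2 ratio of Fads3 (A_51_P464029) against the mean log2 ratio of 9 adipocyte markers (left) and of Elovl1 against that of 4 Schwann cell markers (right), 1 point per mouse, coloured by diet. The points of all 3 diets lie along 1 rising band in each panel (r = 0.860 and 0.808).

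Elovl5 was highest on slide 1, whose arrays also deviated together over all kept probes. With group means removed, they correlated at 0.648 (cHF with cHF+F), 0.605 (cHF with cHF+ROSI) and 0.476 (cHF+F with cHF+ROSI). Their log2 ratios had median absolute deviations of 0.236, 0.234 and 0.276 in cHF, cHF+F and cHF+ROSI. On the other arrays this was at most 0.222. On slide 1 the 3 mice had log2 ratios from 0.50 to 0.83 on A_51_P505493 against -0.21 to 0.38 for the other 21, and from 0.32 to 0.83 on A_52_P676944 against -0.19 to 0.17. The slide 1 mean was 0.61 and 0.57 above that of the other slides, and 2.24% and 2.84% of all kept probes had a larger difference of either sign. Slide 1 was singled out by these same Elovl5 values, so the shares are a description and not a test. With the Cy5 signal alone the difference was 0.86 and 0.89, and with the pool's Cy3 signal alone 0.19 and 0.18. The slide 1 mice, 1 of each diet, thus stood above the rest on both probes without overlap, and the cause was not tested. Of the other members, Fads3 was 0.37 and 0.13 higher on slide 1, Elovl1 0.025 higher and Fads1 0.021 lower (-0.021).

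**Figure D5:**
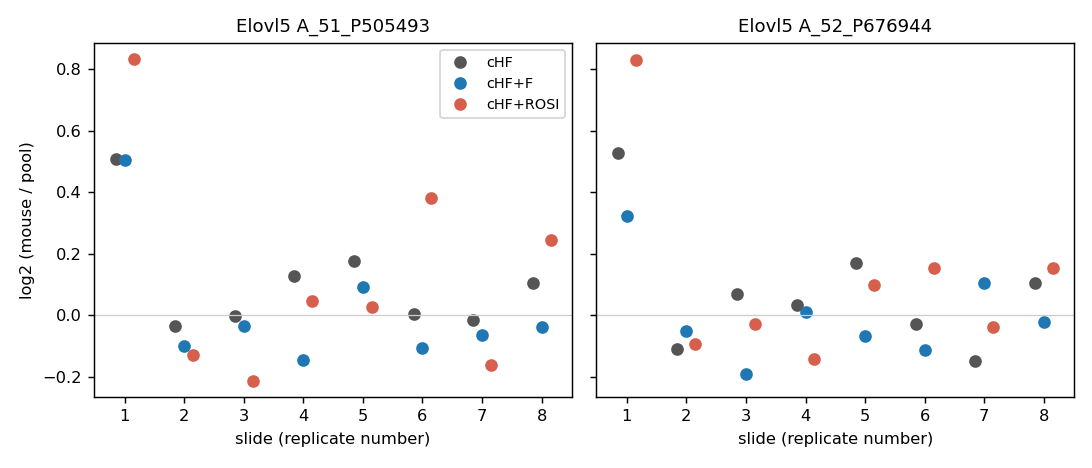
Log2 ratio of mouse over pool (vertical axis) of both Elovl5 probes by slide (horizontal axis, 8 slides with 1 mouse of each diet), coloured by diet. The 3 mice of slide 1 lie at 0.32 or above on both probes, and no other slide stands apart in this way.

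Whether the members varied together was examined over the 24 mice with 1 probe per gene, in 10 relations including those with Srebf1, the gene of SREBP-1. Fads3 went with Elovl1 (r = 0.566, rho = 0.529, permutation p = 0.00428 and 0.00855, adjusted p = 0.0278 and 0.0428) and with Elovl5 (r = 0.552, rho = 0.587, permutation p = 0.00557 and 0.00296, adjusted p = 0.0278 and 0.0296). Without the 2 mice farthest from the median of Fads3 these r were 0.446 and 0.381. With slide means removed they were 0.671 and 0.723, and with the Cy5 signal alone -0.21 and 0.51.

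Within diets the relation of Fads3 with Elovl1 was unequal, at 0.723, 0.707 and 0.211 in cHF, cHF+F and cHF+ROSI, and so was that with Elovl5, at 0.191, 0.425 and 0.850. Differences between these r were not tested. Elovl1 and Elovl5 had an r of 0.272 (permutation p = 0.197, adjusted p = 0.493), and 0.639 with slide means removed (permutation p = 0.0312, adjusted p = 0.104). Fads1 had an r of 0.346 with Elovl1 (permutation p = 0.098, adjusted p = 0.327), 0.133 with Fads3 and -0.040 with Elovl5. With Srebf1 the r of Fads1, Fads3, Elovl1 and Elovl5 were -0.0021, 0.187, 0.061 and -0.099, with no adjusted p under 0.931 or, for Fads3, 0.764.

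The genes most like each member over the 24 arrays, with group means removed and 10485 genes compared, are given as a description. For Fads1 they were Adcy6 (r = 0.700), Prx (0.662), which is one of the Schwann cell markers above, and Dstn (0.630). Without slide 1 these r were 0.661, 0.697 and 0.523, at ranks 10, 2 and 86. For Fads3 the genes most like it were Cfb (0.931), Apcdd1 (0.920) and Prkar2b (0.913). For Elovl1 they were Ptprf (0.925), Sema3b (0.925) and S100b (0.865). For Elovl5 they were Npdc1 (0.922, and 0.734 without slide 1), Twf1 (0.908, and 0.787 without slide 1) and Pi4ka (0.907, and 0.753 without slide 1). The likeness was loosest for Fads1.

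The enzymes and regulators around the family were counted in 7 lists of 86 genes, of which 62 were above background. In none of the 3 comparisons did a listed gene have an adjusted p under 0.05 (limma; smallest 0.30, 0.845 and 0.219 for cHF+F against cHF, cHF+ROSI against cHF and cHF+F against cHF+ROSI). At an unadjusted p under 0.05 there were 8 of 62 genes (12.9%, 3 higher and 5 lower, beside the 6.84% above) in the first comparison, 3 (4.84%, 2 higher and 1 lower, beside 4.96%) in the second, and 8 (12.9%, 4 higher and 4 lower, beside 4.68%) in the third. The list shares count the brightest kept probe of each gene, whereas the shares beside them count all kept probes, so the units differ. All values of single genes below are differences in log2 ratio at an unadjusted p under 0.05 unless another p is given, and none passed adjustment.

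Among the other desaturases (3 of 7 above background), Scd1, which makes monounsaturated fatty acids, was 1.01 lower in cHF+F than in cHF (-1.01, SE 0.25, adjusted p = 0.30; 7 of 8 mice below the cHF mean). It was also lower than in cHF+ROSI (-1.04, SE 0.25, adjusted p = 0.607). Scd2, of the same family, differed by 0.16 (SE 0.17, unadjusted p = 0.362) between cHF+F and cHF and by 0.27 (unadjusted p = 0.112) between cHF+ROSI and cHF. The difference in Scd1 was several times as large as any difference of the members.

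Of the other enzymes of the elongation cycle (7 of 9 above background), Tecr, which carries out its last reduction, was higher in cHF+F than in cHF (0.20, SE 0.067, 8 of 8 mice above the cHF mean) and than in cHF+ROSI (0.16). Hacd1, the dehydratase typical of muscle, was higher in cHF+F than in cHF+ROSI (0.24, SE 0.11) and differed by 0.21 from cHF (unadjusted p = 0.0660). Of the electron donors of desaturases (5 of 6), the cytochrome b5 reductase Cyb5r1 was higher in cHF+F than in cHF (0.20, SE 0.073, 7 of 8 mice). At that threshold no gene of these 2 lists was lower in any comparison.

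All 12 genes of peroxisomal chain shortening, which trims very long chains and completes DHA, were above background. The thiolase Acaa1a was lower in cHF+F than in cHF (-0.15, SE 0.047, 8 of 8 mice) and than in cHF+ROSI (-0.11). Pecr, a peroxisomal reductase that saturates chains rather than shortening them, was lower than in cHF in cHF+F (-0.14, SE 0.050, 8 of 8 mice) and in cHF+ROSI (-0.12, SE 0.050, 7 of 8 mice). These comparisons share their control mice. The median of the 12 genes was -0.083 between cHF+F and cHF.

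Of the genes that activate fatty acids or place them in phospholipids (10 of 15 above background), the acyl-CoA synthetase Acsl1 was lower in cHF+F than in cHF (-0.31, SE 0.095, 8 of 8 mice). Between cHF+F and cHF+ROSI, Acsl3 was lower (-0.27, SE 0.12) and the acyltransferase Lclat1 higher (0.16, SE 0.068). In eicosanoid synthesis, which uses the products of the desaturases, 0 of 11 genes above background had an unadjusted p under 0.05 in any comparison. The smallest p there belonged to the cyclooxygenase Ptgs1, with a difference of -0.13 between cHF+F and cHF (unadjusted p = 0.111).

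Among the regulators (14 of 15 above background), Srebf1 was lower in cHF+F than in cHF (-0.25, SE 0.11, adjusted p = 0.637) and higher in cHF+ROSI than in cHF (0.32, SE 0.11, adjusted p = 0.845). Between cHF+F and cHF+ROSI it differed by -0.58 (SE 0.11, adjusted p = 0.219), with 8 of 8 cHF+F mice below the cHF+ROSI mean. Rxrg, a retinoid X receptor and partner of PPARs, was higher in cHF+F than in cHF (0.36, SE 0.11, 8 of 8 mice) and than in cHF+ROSI (0.25). Pparg, the gene of the receptor that rosiglitazone binds, was higher in cHF+ROSI than in cHF (0.23, SE 0.094, 8 of 8 mice). The means of Srebf1 were -0.31, -0.56 and 0.016 in cHF, cHF+F and cHF+ROSI.

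The genes with the smallest p in lists where fewer than 2 passed had differences that did not pass either threshold. Between cHF+ROSI and cHF these were the ceramide desaturase Degs1 (-0.026), the dehydratases Hacd4 (-0.095) and Hacd3 (0.091), Cyb5a (0.14) and Cyb5r4 (0.071), the peroxisomal transporter Abcd3 (-0.10), the acyltransferase Mboat1 (0.16), Acsl3 (0.21), and Pla2g4b (-0.14) and Alox5 (-0.079) of eicosanoid synthesis. Between cHF+F and cHF they were Cyb5a (0.14), Acsl6 (0.13) and Alox5 (-0.11). Between cHF+F and cHF+ROSI they were Scd2 (-0.12), Cyb5r1 (0.14), Cyb5r4 (0.056), Acaa1b (-0.099), Pla2g6 (0.079) and Ptges3 (-0.11).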

How the data were processed

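Gastrocnemius RNA of 24 mice was hybridised on 24 2-colour Agilent arrays. The deposited scanner files hold the intensity of each spot and its local background; per the file headers, Feature Extraction 10.5.1.1 was used, whereas the submitters' processing notes name version 10.5.5.1. The authors also deposited a table of normalized log2 values for 2 groups (20721 rows for 19387 probes, equal column medians), used as an alternative; 8 further columns name a diet that is no group here and were not used.

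Median signals were corrected by normexp (offset 50), Cy5/Cy3 ratios were normalized by loess (span 0.3), flagged spots were set as missing and spots of a probe averaged. On 6 arrays, up to 12 spots lay more than 50 units below their local background and raised the estimated noise to 991 units, which compressed the log2 ratios (median absolute deviation down to 0.0289). Such spots were left out of the estimate (highest noise 8.29, lowest deviation 0.158) and treated as missing; this was decided on the noise estimates, and normexp on all spots was kept as an alternative. Probes with a mean signal of at least 2 times background in both channels and 4 unflagged arrays per group were kept (15958). No member spot was flagged.

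Groups were compared in limma 3.58.1 (R 4.3.3; lmFit and eBayes, two-sided) in 1 fit of all 24 arrays without a block, with Benjamini-Hochberg adjustment over all kept probes. Replicate numbers mark the slide, and same-slide deviations correlated at -0.10 to 0.65 (median 0.22), with 16 of 24 pairs over 0.1. Arrays of 1 slide thus often deviated together. The methods of the study name no block, so the main fit had none and did not take up this sharing. The fit with slide as a block was an alternative. The members, lists and tests were chosen with earlier results of these data known. Named were all member probes, list genes with an unadjusted p under 0.05 in a comparison or those with the smallest p, and the 3 genes most like each member, by the brightest kept probe. The limma steps were tested on simulated data. Correlations used permutation tests (100000 resamples; exact within groups) in Python 3.11.15. Arrays of 1 group had raw Cy5 signals correlated at 0.842 to 0.996. The p-values of the main fit set a difference against the spread between arrays of 1 group. That spread holds differences between mice and between slides, and the number of arrays limits the precision. Some genes of the marker lists were left out of the scores and are not reported here.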

Additional observations from a re-analysis of the deposited data

Results flagged for a closer look

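In 4 of 30 groups of 8 mice examined over the 10 probes, 1 mouse stood apart from its group, where chance gives about 1 in 20, or 1.5 groups. The 1.5 holds for independent groups, which these were not, since all probes measured the same mice. It therefore cannot be set against the 4. All 4 groups were of Elovl5 with the mouse of replicate number 1 (slide 1) as the highest. On A_51_P505493 this was so in cHF, at a log2 ratio of 0.51 with the next mouse at 0.18 (the gap took 0.612 of the range of the group), and in cHF+F, at 0.50 with the next at 0.091 (0.637 of the range). On A_52_P676944 it was so in cHF, at 0.53 with the next at 0.17 (0.532 of the range), and in cHF+ROSI, at 0.83 with the next at 0.15 (0.694 of the range).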

How the results depend on the processing

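Over the 6 kept probes, 596 of 648 log2 differences under an alternative kept their sign, 52 took the other sign, and none had an adjusted p under 0.05 (lowest 0.252, Fads1 in cHF+F against cHF with the slide block). The Fads1 difference in cHF+F against cHF stayed positive in all of its alternatives (0.098 to 0.33), but its unadjusted limma p was not under 0.05 with the Cy5 signal alone, with the deposited table or with the processed signals of Feature Extraction (0.26, unadjusted p = 0.125 in limma), and it was not tested at a signal of at least 3 times background. In these 4 settings 0 member probes passed. Leaving out 1 array moved it between 0.18 and 0.26. In cHF+ROSI against cHF the count of member probes was 0 to 1 on leaving out 1 array, the 1 being Fads1 without cHF replicate 4 (unadjusted p = 0.0458).

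With median centring the median difference of all probes was 0.114 (cHF+F against cHF) and 0.101 (cHF+F against cHF+ROSI), and the other sign appeared for Elovl1 (0.017 and 0.055), for Elovl5 (0.038 and 0.024) and Fads3 (0.038 and 0.022) in cHF+F against cHF, and for the Fads3 probe A_52_P451796 in cHF+ROSI against cHF (0.063). Relative to that median, the differences in cHF+F against cHF kept the sign of the main analysis on all 6 probes (0.22 for Fads1, -0.098 to -0.076 for the others). In cHF+ROSI against cHF, Elovl1 was 0.0029 with mean spot signals, 0.0033 without background correction and 0.025 with processed signals. In the same comparison Elovl5 was -0.0023 with mean spot signals, -0.081 and -0.069 with processed signals, -0.0037 with Cy5 alone, -0.039 with array weights and -0.023 without slide 1. Fads3 was there -0.011 and 0.15 with processed signals, 0.15 with Cy5 alone (A_52_P451796), -0.059 with array weights and -0.048 without slide 1. In cHF+F against cHF, Fads3 was 0.057 and 0.052 with Cy5 alone and 0.022 (A_52_P451796) with processed signals. In cHF+F against cHF+ROSI, the Fads3 probe A_52_P451796 was 0.027 with array weights and 0.068 without slide 1. On leaving out 1 array the sign was not fixed in cHF+ROSI against cHF for Elovl1 (-0.043 to 0.036), Elovl5 (-0.080 to 0.078 and -0.062 to 0.10) and Fads3 (-0.040 to 0.19 and -0.092 to 0.068), nor for A_52_P451796 in cHF+F against cHF (-0.14 to 0.059) and against cHF+ROSI (-0.11 to 0.060). The cause of these shifts was not tested.

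Over all probes, cHF+F against cHF had 0 called probes in the main analysis, 8 with the replicate number (slide) as a block, 7 with array weights, 2 with mean spot signals, 2 at a signal of at least 3 times background, 27 of 41174 without a filter, and 0 to 3 on leaving out 1 array. The other 2 comparisons had 0 to 1 on leaving out 1 array. No member was among the called probes, and the block changed no call of a member. The number of member genes above background was 4, and it was 7 without a filter, 3 at 3 times background, 6 by the scanner flag in Cy5, 5 in the deposited table and 4 to 5 on leaving out 1 array, Fads2 being the gene that came in. With Cy5 alone, Fads1 correlated with Elovl1 at 0.720 (adjusted p = 0.0067), with Fads3 at -0.24 and with Srebf1 at 0.379, Fads3 with Elovl1 at -0.21, with Elovl5 at 0.511 (adjusted p = 0.057) and with Srebf1 at -0.061, and Elovl1 with Elovl5 at -0.21 (0.272 in the main analysis). With slide means removed, Fads1 correlated with Elovl5 at 0.026 and Elovl5 with Srebf1 at 0.320. Dim signals limited Fads2, Elovl2 and Elovl7.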

Other observations

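Beyond the 3 genes named for each member, the 20 genes most like Fads1 over the 24 arrays (group means removed) included the sterol regulator Srebf2 (r = 0.591, and 0.706 without slide 1), the desaturase Scd2 (0.616 and 0.640) and the fatty acid synthase Fasn (0.566 and 0.547). They also included Pmp22 (0.611 and 0.654), one of the Schwann cell markers. The 20 genes most like Fads3 included the lipid droplet genes Plin1 (0.877 and 0.914) and Cidec (0.873 and 0.918), both among the adipocyte markers. These genes were chosen after their values were seen, and the values are given as a description.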
